A study of Mus musculus with 8 samples.

Results

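Stimulated splenic CD4+ T cells from prenatally Cd-exposed mice were compared with stimulated cells from control mice by RNA sequencing. The comparison rests on 4 of the 8 libraries of the series, 2 of stimulated cells from control offspring and 2 of stimulated cells from Cd offspring, and on the 12605 of 27179 genes whose mean over all 8 libraries was at least 0.5 RPKM (reads scaled by transcript length and by the reads counted in the library). All mice carried the C.Cg-Foxp3tm2Tch/J genotype, a Foxp3 reporter strain. Cd offspring descended from parents that both drank water with 10 ppm CdCl2 around mating, the mothers also through pregnancy, whereas the parents of control offspring drank unspiked water. The spiked water was withdrawn at birth, and the offspring were sampled at 8 weeks of age. The cells of both groups were cultured for 16 hours with beads carrying antibodies to CD3 and CD28. For the Cd difference in stimulated cells, the unstimulated libraries of the same groups entered only the level filter and the estimate of the spread. The replicate numbers 6 and 7 of the labels are not tied to an animal or litter, although the study bred mice in pairs in order to treat a litter as 1 replicate. The p-values therefore measure the spread between these libraries.

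A naive CD4+ T cell that meets antigen together with a CD28 signal leaves quiescence through ordered waves of transcription. Immediate early factors such as FOS, EGR and NR4A proteins come first, and IRF4 and MYC follow. Together with NF-kB and NFAT, these turn on cytokines, cytokine receptors and checkpoint receptors. The cell then takes up glucose, amino acids and iron, builds nucleotides and lipids, enlarges its mitochondria and crosses from G1 into S phase before the first division. The genes were grouped by these roles into an effector programme (6 lists, 157 genes tested), a metabolic programme (8 lists, 250 genes tested) and a cell cycle programme (3 lists, 127 genes tested). In control offspring, stimulation itself changed 122 genes of the effector, 188 of the metabolic and 88 of the cell cycle programme (limma adjusted p under 0.01), a threshold that 6519 of 12605 genes (51.7%) passed.

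The 4 libraries held between 15542732 and 25486791 reads counted on genes, with the Cd libraries (21987821 and 25486791 reads) deeper than the control libraries (15542732 and 19449725 reads). The 2 libraries of a group correlated at 0.986 in control and 0.990 in Cd offspring over the genes tested (Pearson on log2 values, across genes, which are not independent replicates). Il2, the growth factor of activated T cells, followed the stimulation labels and was between 43.9 and 53.0 RPKM in the stimulated libraries and between 0.271 and 0.703 RPKM in the unstimulated ones. T cell genes matched the labelled cell type, with Cd3e between 306 and 318 RPKM and Cd4 between 212 and 227 RPKM, and none of 12 T cell markers was below 1 RPKM. Of 10 B cell markers 9 were below 1 RPKM in all 4 libraries, 5 of them at 0 in each, and their sum was 4.49 to 4.55 RPKM in control and 5.13 to 5.26 RPKM in Cd libraries. Of 14 myeloid and dendritic cell markers 12 were below 1 RPKM, with Cd14 at 0, and 7 of 8 erythroid and platelet markers were at 0. Of the CD8 T cell genes, Cd8a was at most 0.131 RPKM and Cd8b1 between 10.2 and 11.7 RPKM. The 6 natural killer cell markers summed to 6.10 to 6.35 RPKM in control and 7.02 to 7.32 RPKM in Cd libraries, with 4 of them below 1 RPKM and Ncr1 at most 0.0311 RPKM, and the part of the B and natural killer cell genes in the results was not tested. The 7 regulatory T cell markers summed to 136 to 160 RPKM in control and 134 to 142 RPKM in Cd libraries. The labels name the cells CD4+ T cells, while the study also describes conventional T cells that lack CD25, the product of Il2ra, which stimulation induces. Xist was between 58.0 and 67.1 RPKM in the 4 libraries and 3 of 4 Y-linked genes were at 0 in all of them. In bulk cells, fewer cells of a type and less RNA per cell cannot be told apart.

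No gene passed an adjusted p of 0.05 for the Cd difference in stimulated cells (0 of 12605 genes, 0.0%, limma with Benjamini-Hochberg adjustment). At an unadjusted p under 0.05 there were 414 genes (3.28%), of which 222 (1.76%) were higher and 192 (1.52%) were lower in Cd offspring. A count-based alternative, limma voom on the reads recovered from the table, also called no gene and gave 454 at the unadjusted threshold. The median log2 fold change over all genes tested was -0.0090 (Cd against control). Of these genes 5786 were higher and 6817 lower in Cd offspring, which is the background for every count of members higher or lower. In 2019 genes (16.0%) the Cd libraries were both higher than either control library, and in 2601 genes (20.6%) both were lower, and these shares are the background for every count without overlap given here. They depend on how libraries are scaled: with median-of-ratios scaling, a count added after the data were seen, 2407 genes were higher and 2125 lower without overlap. Of the 534 members of the 3 programmes, 6 (1.12%) were higher and 9 (1.69%) lower at the unadjusted threshold, which are shares near that background. Il7r, Tfrc, Btla, Fosb, Egr1, Gapdh, Pole4, Cdc25b, Tacc3 and the untested cytokines were picked for naming after their values were seen, as was any gene marked so where it appears, and the other genes of the lists named here follow a rule. The largest increase or decrease of a list means among members without overlap at a mean of at least 5 RPKM.

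**Figure D1:**
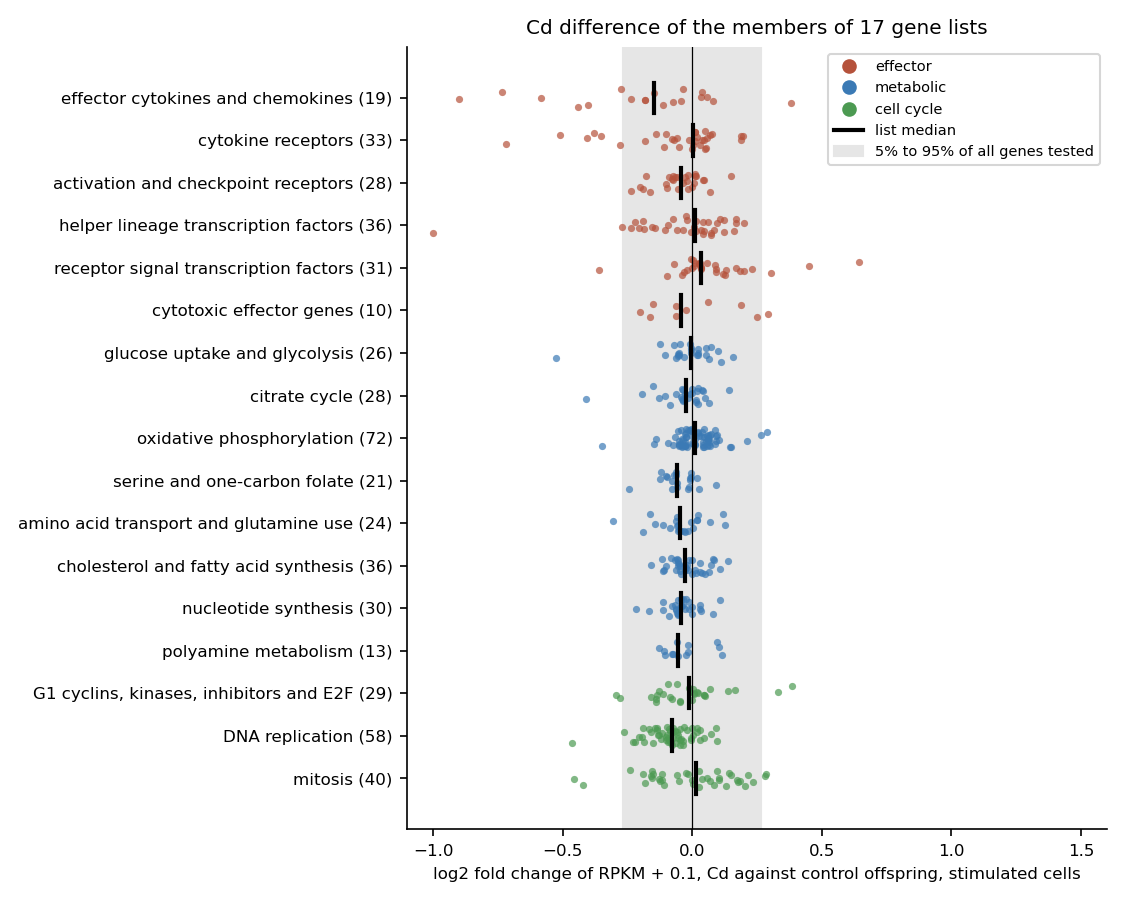
Log2 fold change of log2(RPKM + 0.1) for Cd against control offspring, in stimulated cells (x axis) for the tested members of 17 gene lists (rows, number of members in parentheses); each point is a gene, black bars are list medians, and the grey band spans 5% to 95% of the 12605 genes tested. Most members lie inside the band; the medians run from -0.15 for effector cytokines and chemokines to 0.034 for receptor signal transcription factors.

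Effector cytokines were more often lower than higher in Cd offspring, but none was called and few could be measured well. Of 34 cytokines and chemokines listed, 19 passed the level filter, and the other 15, among them Il10, Il17a, Il13 and Csf2, were at most 1.12 RPKM in any stimulated library. Of the 19 tested, 14 were lower and 5 higher in Cd offspring. Without overlap 8 were lower (42.1%, against 20.6% of all genes) and 1 was higher. With median-of-ratios scaling these counts were 6 and 1. The median log2 fold change was -0.15. It was -0.062 when the Cd stimulated replicate 6 was left out and -0.23 when replicate 7 was. Il2 was at 53.0 and 50.2 RPKM in the control libraries and at 43.9 and 47.2 RPKM in the Cd libraries (replicates 6 and 7 of each, and values set against each other below follow that order). The groups did not overlap, and the Cd level was 0.882 of control with a 95% interval of 0.706 to 1.1. Tnf, an inflammatory cytokine, was measured more narrowly. It was at 103 and 102 RPKM in control and 98.7 and 96.1 RPKM in Cd libraries, 0.95 of control with an interval of 0.861 to 1.05.

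Ifng, the type 1 helper cytokine, showed a larger difference on far fewer reads. It was at 2.93 and 3.02 RPKM in control and at 1.28 and 2.37 RPKM in Cd libraries, a log2 fold change of -0.74 (SE 0.26, limma adjusted p = 1). Both Cd libraries were below both control libraries, but the Cd libraries differed from each other by more than the higher of them differed from control, and the log2 fold change was -0.32 with Cd replicate 6 left out and -1.16 with Cd replicate 7 left out. Lif, a cytokine of the interleukin 6 family, was at 15.4 and 13.4 RPKM in control and 10.2 and 11 RPKM in Cd libraries (log2 fold change -0.44, SE 0.16, adjusted p = 1). These were the 2 members of the list with an unadjusted p under 0.05. Cd40lg, the CD40 ligand by which helper T cells reach B cells, was the 1 member higher without overlap, at 57.3 and 57.8 against 64 and 57.9 RPKM, with a log2 fold change of 0.082 (SE 0.098) that was 0.010 with Cd replicate 6 and 0.15 with Cd replicate 7 left out.

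Tbx21 and Il12rb1 were, like Ifng, lowest in the Cd replicate 6 library. Tbx21, which encodes T-bet, the factor that turns Ifng on, was at 4.87 and 8.28 RPKM in control and 1.91 and 5.09 RPKM in Cd libraries, so that the groups overlapped. Its log2 fold change of -1.0 had an SE of 0.42 (limma adjusted p = 1), and the value was -0.31 when the Cd stimulated replicate 6 was left out and -1.68 when replicate 7 was, and -0.62 without the control stimulated replicate 7. Il12rb1, a chain of the interleukin 12 receptor, was at 8.60 and 10.5 RPKM in control and 5.32 and 8.25 RPKM in Cd libraries, and its log2 fold change of -0.51 became -0.20 with Cd replicate 6 left out and -0.82 with Cd replicate 7 left out. Gata3, the factor of type 2 helper cells, was at 20.8 and 20.1 RPKM in control and 21.9 and 19.0 RPKM in Cd libraries, and Foxp3, the factor of regulatory T cells, at 7.29 and 5.98 against 7.69 and 7.20 RPKM. The groups overlapped in both genes, and the direction of Gata3 (log2 fold change -0.0055) turned with either other scaling. Across the 36 helper lineage factors tested the median log2 fold change was 0.010, with 5 higher and 6 lower without overlap (8 and 5 with median-of-ratios scaling), and Tbx21 was the 1 member with an unadjusted p under 0.05.

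**Figure D2:**
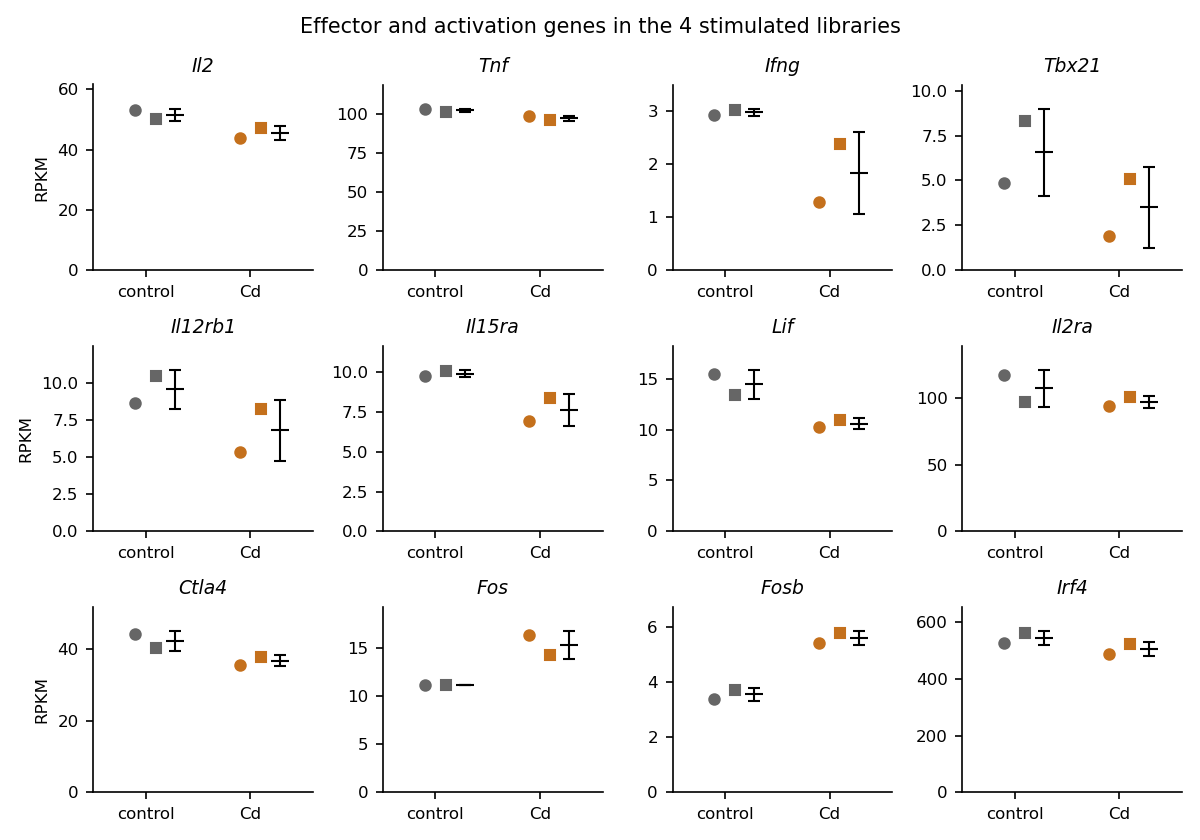
RPKM (y axes, from 0, each with its own scale) of 12 effector and activation genes in the 4 stimulated libraries, by group; circles are replicate 6, squares replicate 7, and the black marks are the mean and SD of the 2 libraries. Ifng runs from 1.28 to 3.02 and Tbx21 from 1.91 to 8.28 RPKM with the Cd replicate 6 lowest, while Fos and Fosb lie higher in both Cd libraries.

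Among cytokine receptors, 33 of 38 listed genes were tested, with 7 higher and 8 lower without overlap and a median log2 fold change of 0.0036. Il15ra, which presents interleukin 15 and binds it with high affinity, was at 9.73 and 10.1 RPKM in control and 6.90 and 8.34 RPKM in Cd libraries, a log2 fold change of -0.38 (SE 0.11, limma adjusted p = 1). Il7r, the survival receptor of resting T cells, was at 130 and 121 RPKM in control and 152 and 134 RPKM in Cd libraries, 1.14 of control with an interval of 1.0 to 1.29. These were the members at an unadjusted p under 0.05, in opposite directions. Il2ra, the high-affinity chain of the interleukin 2 receptor and a marker of activation, was at 117 and 97.6 RPKM in control and 94.0 and 101 RPKM in Cd libraries, so that the groups overlapped and a change beyond 0.770 or 1.07 of control lay outside its interval. Cxcr4, a chemokine receptor of lymphoid homing, was the largest increase without overlap, at 11.9 and 13.1 against 14.0 and 14.6 RPKM, with an interval of 0.815 to 1.61.

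Activation and checkpoint receptors were measured more narrowly. Of 28 tested members 20 were lower and 8 higher in Cd offspring, 8 lower and 3 higher without overlap, and the median log2 fold change was -0.044. Tfrc, the transferrin receptor by which activated cells import iron, was at 119 and 108 RPKM in control and 103 and 99.9 RPKM in Cd libraries (0.893 of control, interval 0.816 to 0.977). Btla, an inhibitory receptor, was at 61.6 and 55.9 against 52 and 50.8 RPKM (0.876, interval 0.780 to 0.983). Both did not overlap and were the members with an unadjusted p under 0.05, each at an adjusted p of 1. Ctla4, the inhibitory receptor that competes with CD28, was at 44.3 and 40.3 RPKM in control and 35.7 and 37.9 RPKM in Cd libraries, and Cd200, another inhibitory molecule, had a log2 fold change of -0.24 (SE 0.12) that was -0.10 with control replicate 6 and -0.37 with control replicate 7 left out. The early activation marker Cd69 was at 326 and 322 RPKM in control and 308 and 306 RPKM in Cd libraries (0.947, interval 0.840 to 1.07), and for Cd44, which marks antigen-experienced cells, the groups overlapped at 32.3 to 34.3 RPKM. Cd27, a costimulatory receptor, was the largest increase without overlap at 1.11 of control, with an interval of 0.979 to 1.26. Without the control stimulated replicate 6 the list median was -0.0091.

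Transcription factors that carry the receptor signal stood on the other side. Of 31 tested, 23 were higher and 8 lower in Cd offspring, 13 were higher without overlap (41.9%) against 3 lower, and the median log2 fold change was 0.034, which was 0.0065 when the control stimulated replicate 6 was left out and 0.085 when replicate 7 was. The counts without overlap were 14 and 2 with median-of-ratios scaling. Fos and Fosb, subunits of the immediate early AP-1 factor, had the lowest p-values. Fos was at 11.1 and 11.2 RPKM in control and 16.3 and 14.3 RPKM in Cd libraries, a log2 fold change of 0.45 (SE 0.082, limma adjusted p = 0.504). Fosb was at 3.39 and 3.72 RPKM in control and 5.42 and 5.78 RPKM in Cd libraries, a log2 fold change of 0.64 (SE 0.10, adjusted p = 0.430). In both genes the Cd libraries lay above the control libraries by more than either group spread. In control cells both genes were far lower at 16 hours than before stimulation (log2 fold change of stimulation -5.77 for Fos and -5.74 for Fosb), and that comparison shares the control libraries with this one. Egr1, another immediate early factor, was at 126 and 134 RPKM in control and 153 and 151 RPKM in Cd libraries, with a log2 fold change of 0.23 and a 95% interval that included 0 (-0.22 to 0.68). Nr4a1, an early read-out of receptor signalling, was at 218 and 260 RPKM in control and 271 and 264 RPKM in Cd libraries, with an interval of 0.825 to 1.53.

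The later factors of the activation response differed by less than their intervals. Myc, which drives growth and metabolism, was at 198 and 187 RPKM in control and 189 and 194 RPKM in Cd libraries, 0.996 of control with an interval of 0.834 to 1.19. Irf4, whose level follows the strength of the receptor signal, was at 525 and 561 RPKM in control and 486 and 522 RPKM in Cd libraries, below control without overlap by a log2 fold change of -0.11 (SE 0.11). Hif1a, the factor of the hypoxic and glycolytic response, was at 84.3 and 77.8 against 75.3 and 71.1 RPKM (log2 fold change -0.15), and Bcl6, the factor of follicular helper cells, at 7.5 and 8.89 against 9.0 and 9.28 RPKM (log2 fold change 0.16, and 0.039 with control replicate 6 or 0.28 with control replicate 7 left out). Nfkbiz, an atypical regulator of NF-kB targets, was the largest decrease without overlap of its list at a mean of at least 5 RPKM, with a log2 fold change of -0.096 (SE 0.095). Of the cytotoxic genes, Gzmb, a granzyme, was at most 0.138 RPKM, and of 10 members tested 2 were higher and 2 lower without overlap (2 and 1 with median-of-ratios scaling). Ctsw, a protease of cytotoxic lymphocytes, was at 32.3 and 37.0 against 37.8 and 41.1 RPKM, and Srgn, the granule proteoglycan, at 367 and 386 against 356 and 365 RPKM.

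Metabolic genes were the most narrowly measured of the 3 programmes, and fewest of them passed the unadjusted threshold. Of 250 members tested, 1 had an unadjusted p under 0.05 with a higher level and none with a lower level in Cd offspring (0.40% and 0%, against 1.76% and 1.52% of all genes). Without overlap, 29 were higher (11.6%) and 69 were lower (27.6%), and with median-of-ratios scaling 34 and 48. The median log2 fold change was -0.023, and for 234 of the 250 genes (93.6%) the 95% interval lay inside 1.5-fold in either direction.

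Glucose uptake and glycolysis, the route by which activated T cells gain ATP and carbon, had a median log2 fold change of -0.0055 over 26 members. Slc2a1, the main glucose importer, was at 10.4 and 12.4 RPKM in control and 12.7 and 11 RPKM in Cd libraries. Hk2, the inducible hexokinase, was at 17.4 and 15.4 against 15.3 and 15.2 RPKM, without overlap but with an interval as wide as 0.634 to 1.36. Ldha, the lactate dehydrogenase of activated cells, was at 369 and 379 RPKM in control and 350 and 363 RPKM in Cd libraries, 0.952 of control (interval 0.863 to 1.05). Bpgm, which makes 2,3-bisphosphoglycerate, was the largest increase without overlap, at 16.4 and 15.9 against 17.1 and 16.8 RPKM. Gapdh stood between 9.14 and 10.7 RPKM, and since it has many pseudogenes its level is uncertain in this counting.

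The citrate cycle list was the most narrowly measured of all 17, with 95% intervals that reached a median of 1.1-fold to either side, and 25 of its 28 members had an interval inside 1.25-fold. Its median log2 fold change was -0.023. Cs, the citrate synthase, was at 85.4 and 86.6 RPKM in control and 82.4 and 84.8 RPKM in Cd libraries, without overlap and with an interval of 0.890 to 1.06. Dlat, a subunit of pyruvate dehydrogenase, was the largest decrease without overlap, at 19.9 and 20.6 against 18.8 and 17.6 RPKM (log2 fold change -0.15, SE 0.066), and Pdha1, another subunit of the same complex, was the largest increase without overlap, at 49.4 and 49.7 against 51.1 and 51.5 RPKM.

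Oxidative phosphorylation, with 72 members, had 13 higher and 13 lower without overlap (17 and 8 with median-of-ratios scaling) and a median log2 fold change of 0.012. Cox7c, a small subunit of cytochrome c oxidase, was at 17.3 and 19.6 RPKM in control and 22.1 and 23.0 RPKM in Cd libraries, a log2 fold change of 0.29 (SE 0.091, limma adjusted p = 1). It was the single metabolic gene with an unadjusted p under 0.05. Ndufb4, a subunit of complex I, was at 7.94 and 8.49 against 5.91 and 7.0 RPKM with a wide interval (0.529 to 1.17). Cox5a, another subunit of cytochrome c oxidase, was at 111 and 108 against 104 and 108 RPKM, with an interval of 0.865 to 1.08 that leaves its direction undecided. Cox7a2, a further subunit picked after its values were seen, was the 1 of the 534 programme members whose Cd difference departed between stimulated and unstimulated cells (log2 fold changes 0.063 and -0.87, interaction in limma, adjusted p = 0.041), where 45 of all genes tested (0.357%) did.

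Biosynthetic lists lay slightly below control, with median log2 fold changes from -0.058 to -0.026. Serine and one-carbon folate genes had the lowest median (-0.058, 18 of 21 lower), and Mthfd2, the mitochondrial folate enzyme induced by activation, was at 44.8 and 46.9 RPKM in control and 41.5 and 46.7 RPKM in Cd libraries. Slc25a32, the mitochondrial folate carrier, was at 22.2 and 19.5 against 19.2 and 18.9 RPKM, and Slc19a1, the reduced folate carrier of the cell surface, went the other way, at 36.9 and 37.6 against 38.7 and 40.7 RPKM. Nucleotide synthesis had a median of -0.042, with 25 of 30 members lower. Without overlap 7 were lower (23.3%, against 20.6% of all genes) and 1 was higher. With median-of-ratios scaling 5 were lower (16.7%, against 16.9% of all genes) and 1 was higher, so the lower share was near that of all genes. Dctd, the deoxycytidylate deaminase, was at 13.7 and 13.3 against 11.7 and 12.4 RPKM, and Impdh2, of guanine nucleotide synthesis, at 25 and 25.6 against 26.5 and 28.1 RPKM.

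Amino acid genes showed a median of -0.048, with 10 of 24 lower and 3 higher without overlap (7 and 2 with median-of-ratios scaling). Slc7a5, the leucine importer that licenses growth, overlapped at 74.4 and 78.2 against 72.6 and 76.6 RPKM. Slc43a2, another transporter of neutral amino acids, was at 8.49 and 9.35 against 9.96 and 9.40 RPKM. Cholesterol and fatty acid synthesis had 13 of 36 lower and 4 higher without overlap (8 and 5 with median-of-ratios scaling) and a median of -0.026, which was 0.0049 without the control stimulated replicate 6. Hmgcs1, the enzyme that makes HMG-CoA, overlapped at 77.4 and 66.3 against 71.1 and 67.7 RPKM, Hsd17b7 was at 9.37 and 9.0 against 8.20 and 8.23 RPKM, and Ebp at 15.3 and 14.9 against 16.7 and 16.7 RPKM; all are steps of the sterol pathway. Of the polyamine genes, Odc1, the first enzyme, was at 78.5 and 79.0 against 74.3 and 76.9 RPKM, the catabolic enzyme Sat1 at 52.6 and 52.1 against 48.3 and 49.1 RPKM, and Oaz1, the inhibitor of ODC1, at 46.6 and 51.5 against 52 and 54.3 RPKM.

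DNA replication was the most one-sided list of the cell cycle programme, by small amounts. Of 58 members tested (59 listed), 49 were lower and 9 higher in Cd offspring, 22 were lower without overlap (37.9%) against 3 higher, and the median log2 fold change was -0.080, a level of 0.946 of control. With median-of-ratios scaling 16 were lower and 3 higher without overlap. The count depended most on 1 control library. Measured as the median deviation of the members from their mean over the 4 libraries (log2), the list stood at 0.090 and -0.020 in the control and at -0.068 and -0.011 in the Cd libraries, so that control replicate 6 was high and Cd replicate 6 was low while the libraries numbered 7 nearly coincided. Without the control stimulated replicate 6, 33 members were lower and 25 higher and the median was -0.022. With control replicate 7 left out instead, 51 were lower and 7 higher and the median was -0.12. Leaving out Cd replicate 6 gave 41 lower and 17 higher (median -0.055), and leaving out Cd replicate 7 gave 51 and 7 (median -0.11).

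**Figure D3:**
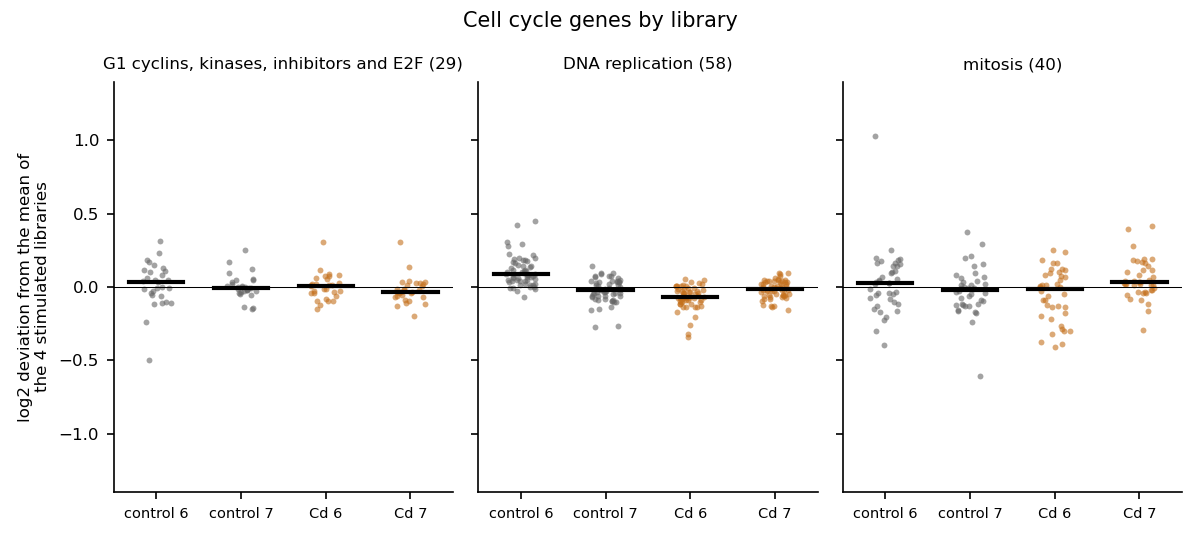
Log2 deviation of each member from its own mean over the 4 stimulated libraries (y axis) for 3 cell cycle lists (panels, number of members in parentheses), by library (x axis); black bars are the medians. In DNA replication the medians are 0.090, -0.020, -0.068 and -0.011 from left to right, and in the other lists they lie between -0.032 and 0.036.

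Orc6, the smallest subunit of the origin recognition complex, had the lowest p of the list, at 14.0 and 13.3 RPKM in control and 11.6 and 11.1 RPKM in Cd libraries (log2 fold change -0.26, SE 0.076, limma adjusted p = 1). Pole4, an accessory subunit of DNA polymerase epsilon, was at 44.0 and 45.3 against 40.6 and 40.3 RPKM (0.906 of control, interval 0.833 to 0.985). With 1 library left out at a time, the log2 fold change of Orc6 ran from -0.30 to -0.22. Mcm2, a subunit of the replicative helicase, and Pcna, the sliding clamp, overlapped between groups. Mcm2 was at 51.2 and 47.3 RPKM in control and 44.0 and 48.9 RPKM in Cd libraries (interval 0.834 to 1.07), and Pcna at 102 and 102 against 96.2 and 103 RPKM (interval 0.893 to 1.07). Dbf4, the activator of the origin-firing kinase CDC7, was the largest increase without overlap, at 13.1 and 12.1 against 13.2 and 13.2 RPKM.

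G1 regulators were mixed, with 5 of 29 higher and 7 lower without overlap and a median log2 fold change of -0.013, which was -0.034 with control replicate 7, and -0.024 with either Cd library, left out. Ccnd2, a D-type cyclin, was at 334 and 319 RPKM in control and 291 and 302 RPKM in Cd libraries (0.910, interval 0.812 to 1.02). E2f5, a repressive E2F factor, was at 11.7 and 11 RPKM in control and 9.23 and 9.35 RPKM in Cd libraries, a log2 fold change of -0.28 (SE 0.070, limma adjusted p = 1), the one G1 member with an unadjusted p under 0.05. Cdkn2d, an inhibitor of the D-type cyclin kinases, was at 11.5 and 12.0 against 12.7 and 13.7 RPKM (1.12, interval 0.998 to 1.26). Cdkn1b, the inhibitor that holds resting T cells out of cycle, overlapped at 55.3 to 61.0 RPKM with a log2 fold change of 0.0036, and Ccne1, the E-type cyclin of S phase entry, overlapped at 2.85 to 3.36 RPKM.

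Of 62 mitotic genes listed, 22 were below the filter. Cdk1, the mitotic kinase, was at 0.855 and 0.683 RPKM in control and 0.477 and 0.837 RPKM in Cd libraries, and Mki67, the proliferation marker, at 0.409 and 0.362 against 0.307 and 0.561 RPKM. Mki67 had a log2 fold change of 0.097 with an interval of 0.643 to 1.78, and the value ran from -0.25 to 0.45 when 1 library was left out. Of 40 members tested, 10 were higher and 7 lower without overlap and the median was 0.014. Cdc25b, a phosphatase that activates mitotic kinases, was at 12.8 and 12.7 against 16.3 and 13.6 RPKM, and Tacc3, a spindle protein, at 2.65 and 2.56 against 3.08 and 3.29 RPKM, and these were the 2 members with an unadjusted p under 0.05, both higher. Kif22, a chromosome-moving kinesin, was at 4.89 and 4.28 against 6.04 and 5.19 RPKM, and Smc2, of the condensin complex, at 13.9 and 12.7 against 11.5 and 12.3 RPKM.

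How small a difference the fit could show between the 4 libraries depended on the level of the gene, chiefly below 20 RPKM. The 95% interval reached a median of 0.23 on the log2 scale, or 1.17-fold, to either side of the estimate over the 12605 genes, a distance called the margin here. By mean level in the stimulated cells the median margin was 1.62-fold below 1 RPKM (1135 genes), 1.34-fold from 1 to 5 RPKM (2852 genes), 1.16-fold from 5 to 20 RPKM (4353 genes), and 1.11-fold from 20 to 100 RPKM (3648 genes) and above (617 genes). The interval lay inside 1.25-fold in either direction for 6682 genes (53.0%), inside 1.5-fold for 9820 genes (77.9%) and inside 2-fold for 11621 genes (92.2%). These intervals hold for 1 gene at a time. To be called alone among all genes tested, a gene of median spread would have needed a 2.27-fold difference, from 12.1-fold below 1 RPKM to 1.73-fold between 20 and 100 RPKM. Counting error was part of this width. The median SE was 0.098, and the part that the reads of the 4 stimulated libraries alone give was 0.062. Below 1 RPKM they were 0.30 and 0.31, with a median over genes of 15 reads in the library where a gene had fewest. There the pseudocount of 0.1 RPKM enters only the SE, so the 2 are not part and whole. Above 100 RPKM counting gave 0.018 of 0.066. Reads were counted without molecular identifiers, so this part covers counting error only.

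The programmes differed in what could be seen. The fewest reads per gene had a median of 1347 in effector and 1036.5 in metabolic genes, yet effector genes had the wider intervals. Metabolic genes had a median margin of 1.13-fold, and 78.8% of them had an interval inside 1.25-fold, against 49.0% of effector genes (1.17-fold) and 39.4% of cell cycle genes (1.19-fold). Effector cytokines were the widest of all lists, at 1.32-fold, and only 5 of 19 had an interval inside 1.25-fold. Mitosis was next at 1.29-fold, with 3 of 40 inside 1.25-fold, against 34 of 58 for DNA replication.

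Outside the programmes, the lowest p-values were taken among protein-coding and long noncoding genes without overlap at a mean of at least 5 RPKM. These genes did not pass the adjusted threshold either. The lowest adjusted p over all genes tested, 0.098 in limma, fell outside that choice. Tpt1, the translationally controlled tumor protein, a gene with many processed copies, was at 189 and 197 RPKM in control and 239 and 233 RPKM in Cd libraries (log2 fold change 0.29, SE 0.048, adjusted p = 0.464). Pold4, an accessory subunit of DNA polymerase delta that the replication list did not hold, was at 8.39 and 9.18 against 11.8 and 11.8 RPKM (log2 fold change 0.42, adjusted p = 0.504). F2rl1, a protease-activated receptor, was at 10.7 and 9.94 against 12.8 and 12.7 RPKM, and Gm6109 at 8.32 and 9.01 against 15.4 and 13.9 RPKM (adjusted p = 0.687 for both). Gm6109 had a log2 fold change of 0.75, a level of 1.68 of control. On the lower side, Snhg4, a small nucleolar RNA host gene, was at 32.8 and 31.4 RPKM in control and 25.2 and 24.4 RPKM in Cd libraries (log2 fold change -0.37, SE 0.080, adjusted p = 0.885). Alkbh1, a nucleic acid demethylase, was at 29.4 and 28.4 against 24.5 and 25.3 RPKM, and Cox20, an assembly factor of cytochrome c oxidase, at 93.5 and 95.7 against 81.9 and 84.1 RPKM.

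Genes of the response to metal and stress held no member with an unadjusted p under 0.05. Mt1, the metallothionein that binds Cd, was at 0.190 to 0.362 RPKM in the 4 libraries, on 2 to 5 reads, and could not be tested. Of 23 members tested, 2 were higher and 4 lower without overlap (4 and 3 with median-of-ratios scaling), and the median log2 fold change was -0.020, which turned to 0.0046 with control replicate 6 and to 0.0010 with Cd replicate 7 left out. Gclm, of glutathione synthesis, was at 23.2 and 22.3 against 25.5 and 24.3 RPKM, and Keap1, the sensor that restrains NRF2, at 13.4 and 13.5 against 12.3 and 11.9 RPKM. Of the genes that the study followed, the long noncoding RNA Snhg7 was at 18.6 and 20.1 RPKM in control and 17.2 and 18.8 RPKM in Cd libraries. The groups overlapped, the log2 fold change was -0.10 (SE 0.11, adjusted p = 1), and the interval was 0.776 to 1.11 of control. With 1 library left out, the log2 fold change was -0.16 without control replicate 6, -0.048 without control replicate 7, -0.041 without Cd replicate 6 and -0.17 without Cd replicate 7. Galnt1 (39.2 and 37.3 against 37.7 and 36.8 RPKM) and Galnt7 (21.3 and 19.3 against 20.3 and 19.8 RPKM), glycosyltransferases that start O-linked glycans, overlapped as well, with intervals of 0.870 to 1.09 and 0.844 to 1.16.

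Rpl23a and Rps29, genes of the large and the small ribosomal subunit, were named for this comparison with earlier results of these data known. Both were higher in both Cd libraries (Rpl23a 51.2 and 51.1 against 67.0 and 72.9 RPKM, Rps29 53.3 and 52.3 against 70.9 and 73.7 RPKM). The log2 fold change was 0.45 for each (SE 0.11 and 0.15, adjusted p = 1 in limma). Both have many processed copies, so that the counting could have split their reads.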

How the data were processed

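Poly(A) RNA of 8 libraries was sequenced, and the authors used Subread for alignment to mm10 and featureCounts for counting on RefSeq transcripts. Versions, strand setting, treatment of reads with several matches and the step from counts to RPKM are not given in the sources used here. The deposited table holds log2 of RPKM + 1 plus a small constant for 27179 genes, without counts, where plain RPKM had been assumed when the tests were set. The values were converted back to RPKM. For 17794 genes, whole reads could be worked out from how low values step, which gave the totals of 15542732 to 25486791 reads per stimulated library. Identifiers were matched to RefSeq GRCm38.p6 for 25275 genes.

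Genes with a mean of at least 0.5 RPKM over the 8 libraries (12605) were tested with limma 3.58.1 in R 4.3.3 on log2(RPKM + 0.1), a scale that understates changes of low genes. All 8 libraries entered 1 fit of 4 group means (4 residual degrees of freedom, moderated with trend), with Benjamini-Hochberg adjustment over all genes tested. An exact permutation test of 2 against 2 libraries cannot go below 0.333. Intervals are 95% intervals of that fit for 1 gene at a time. No overlap means that both Cd libraries lay above, or both below, both control libraries. Named genes were a preset set of activation, metabolic and cell cycle genes. Each list added its largest increase and decrease without overlap at a mean of at least 5 RPKM. To these came the 5 lowest p-values in each direction at that level, without overlap and among protein-coding and long noncoding genes. Rpl23a and Rps29 were named for this comparison. The rest were members picked after their values were seen, which the report names as such. A gene that the rule selected is not reported here. The groups, members and lists were chosen with earlier results of these data known. Scripts were tested on simulated data. The alternatives were other pseudocounts, filters, scalings, fits and each library left out. Pandas 2.3.3 and matplotlib 3.10.9 under Python 3.11.15 were used for tables and plots.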

Additional observations from a re-analysis of the deposited data

Results flagged for a closer look

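Of the named genes and list members, 5 had a Cd difference in stimulated cells that departed from the Cd difference in unstimulated cells (interaction in limma, adjusted p under 0.05 over all genes tested, where 45 genes, or 0.357%, passed). Cox7a2 and Hsph1 were named after their values were seen. Tpt1 was named for its low p in stimulated cells, a difference that enters the interaction. Rpl23a and Rps29 were named for this comparison with earlier results known, so the 5 are not independent finds. The stimulated and the unstimulated difference come from the same 8-library fit but from separate libraries. Tpt1 differed by 1.17 on the log2 scale (adjusted p = 0.0044), with a log2 fold change of 0.29 in stimulated and -0.88 in unstimulated cells. Rpl23a differed by 1.53 (adjusted p = 0.017), with 0.45 in stimulated and -1.08 in unstimulated cells, and Rps29 by 1.52 (adjusted p = 0.048), with 0.45 and -1.07. Cox7a2, a subunit of cytochrome c oxidase, differed by 0.93 (adjusted p = 0.041), with 0.063 in stimulated and -0.87 in unstimulated cells. Hsph1, a chaperone of the heat shock response, differed by -0.97 (adjusted p = 0.046), with -0.016 in stimulated and 0.95 in unstimulated cells. In RPKM, Hsph1 was at 27.5 and 28.2 in control and 48.3 and 60.0 in Cd libraries before stimulation, and at 109 and 101 against 105 and 102 after it. Groups of 2 libraries are too small for a check of single outlying libraries.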

How the results depend on the processing

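Counts of genes at an adjusted p under 0.05 stayed at 0 except for 9 genes without a level filter, 2 without the trend and 0 to 3 with 1 library left out. The 3 came without the control stimulated replicate 7 and were Mir27a, Mir1927 and Mir5106, each at 0 in the remaining control library, and in these fits the lone library is assumed to vary like the other groups. The count at an unadjusted p under 0.05 (414) was 720 without a filter (367 higher, 353 lower), 262 at a mean of at least 5 RPKM (114 lower), where fewer genes were tested, 675 with only the 4 stimulated libraries (350 lower), and 306 to 520 with 1 library left out (143 to 316 higher, the 143 without the Cd stimulated replicate 6, and 150 to 225 lower). The median margin of the 95% interval was 0.20 on the log2 scale in the 4 stimulated libraries alone and 0.29 to 0.30 with 1 library left out.

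Some list medians moved by more than the spread between replicates, and the cause was not tested. With median-of-ratios scaling they were 0.022 for helper lineage factors, -0.011 for the citrate cycle and -0.036 for amino acid genes, with quantile normalization -0.038 for amino acid genes, at a mean of at least 1 RPKM -0.039 for amino acid and -0.047 for G1 genes, and at 5 RPKM 0.10 for mitosis. With 1 library left out, medians ran from -0.23 to -0.062 for effector cytokines, -0.034 to 0.012 for cytokine receptors, -0.061 to -0.0091 for activation receptors, -0.022 to 0.029 for helper lineage factors, 0.0065 to 0.085 for receptor signal factors, -0.019 to -0.0029 for glycolysis, -0.043 to -0.0067 for the citrate cycle, -0.0088 to 0.043 for oxidative phosphorylation, -0.077 to -0.030 for serine and folate genes, -0.047 to -0.035 for amino acid genes, -0.052 to 0.0049 for cholesterol and fatty acid genes, -0.058 to -0.0052 for polyamine genes and -0.025 to 0.060 for mitosis.

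Of 74 named genes tested, 72 kept their direction with median-of-ratios scaling and 73 with quantile normalization. Gata3 turned to 0.0066 and 0.0045, and Myc to 0.0065 with median-of-ratios scaling. With 1 library left out, directions turned for Cd44 (-0.072 to 0.0027), Gata3 (-0.11 to 0.094), Slc2a1 (-0.074 to 0.18), Mthfd2 (-0.14 to 0.027), Slc7a5 (-0.072 to 0.0053), Hmgcs1 (-0.16 to 0.065), Myc (-0.048 to 0.037), Cdkn1b (-0.067 to 0.074), Pcna (-0.080 to 0.017), Mki67 (-0.25 to 0.45), Galnt1 (-0.072 to 0.00013) and Galnt7 (-0.089 to 0.052).

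With the replicate number as a block, 0 genes passed the adjusted and 408 the unadjusted threshold. Deviations of same-numbered control and Cd stimulated libraries correlated at -0.041 across genes. Between unstimulated and stimulated libraries of the same number the value was 0.064 in control and 0.0085 in Cd offspring. The numbers were not taken to pair the libraries, but such low values cannot exclude a shared animal. The fit, and with it the interaction, treated all 8 libraries as independent. Counts without overlap under other scalings, chosen after the data were seen, were 2293 higher and 2236 lower with quantile normalization.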
